A study of Sus scrofa with 12 samples.

Results

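Satellite cells are the resident stem cells of skeletal muscle. They lie quiescent between the muscle fiber and its basal lamina, and after injury or during growth they divide and fuse into fibers. The transcription factors PAX7 and PAX3 mark the lineage, Notch signaling keeps the cells quiescent, and receptors and adhesion proteins on the cell surface tie them to their niche. Because they are a small minority of the nuclei in whole muscle, most of the DNA in a muscle sample comes from other cells. The genes described here are PAX7, PAX3, SPRY1, CALCR, HEYL, NOTCH1, NOTCH3, MET, VCAM1 and CDH15, 10 genes that are used as markers or regulators of these cells. Their open chromatin was taken as every region whose midpoint lay inside the gene or within 10 kb of it in the Sscrofa11.1 pig genome, which gave 126 of the 140081 regions in the table.

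ATAC-seq, in which a transposase cuts accessible DNA so that reads gather where chromatin is open, was performed on the longissimus dorsi muscle, the long muscle of the back, of 3 Luchuan and 3 Duroc boars aged 180 days. Luchuan is a fat Chinese breed with small muscle fibers and Duroc is a lean breed. All boars were kept and fed alike, and none carried a treatment. The deposited table holds 1 read count per region and breed, so the boars of a breed cannot be separated, no test between breeds was possible, and every interval given here covers counting error only.

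The regions held 20759894 Duroc reads and 13746020 Luchuan reads in all, with medians of 61 and 38 reads per region. Luchuan counts were therefore multiplied by 1.48, the factor that sets the median log2 ratio of the regions common to both breeds to 0. All log2 ratios are of scaled Luchuan over Duroc reads with 1 added to each, and openness is the mean of Duroc and scaled Luchuan reads per kb of region. In whole muscle, reads at these genes from satellite cells and from other cells cannot be separated. Fewer satellite cells and less accessible DNA per satellite cell cannot be told apart either.

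Chromatin was open at 8 of the 10 genes. SPRY1 had 39 regions, MET 27, PAX7 16, CALCR 11, PAX3 10, HEYL 8, NOTCH3 8 and CDH15 7. VCAM1 had none, and NOTCH1 lies on an unplaced sequence of the annotation used here, whereas the table covers chromosomes 1 to 18, X and Y, so NOTCH1 was not analysed here. A region of these genes had a median openness of 243 reads per kb (interquartile range, 154 to 443), beside 227 (147 to 400) for all regions of the muscle. Median widths were also close, at 270.5 bases for the regions of these genes and 251 bases for all regions. In openness and width the satellite cell genes thus lay near the middle of the muscle's open chromatin. By comparison, 624 regions of 19 muscle fiber genes had a median of 649 reads per kb.

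Among the regions of these genes, those at gene ends were more open than the others. Strand and exon structure are missing from the annotation, so the start of a gene could not be told from its end, both were examined, and introns and exons were not separated. At 6 of the 9 genes that could be analysed 1 or more regions reached within 1 kb of either end, as they did for 69.3% of all 19550 protein-coding genes on these chromosomes. The genes without one were NOTCH3, CALCR and VCAM1. The 9 regions at gene ends had a median of 527 reads per kb and ranged from 214 to 933. The other 117 had a median of 239 and ranged from 26.5 to 882. Those at the ends were also wider, with a median of 423 bases beside 258. Placement at an end went by the nearest edge of a region, which by itself favors wide regions. Of the regions at gene ends, 6 of 9 were common to both breeds, beside 61 of the 117. The same contrast over all genes was not computed.

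**Figure D1:**
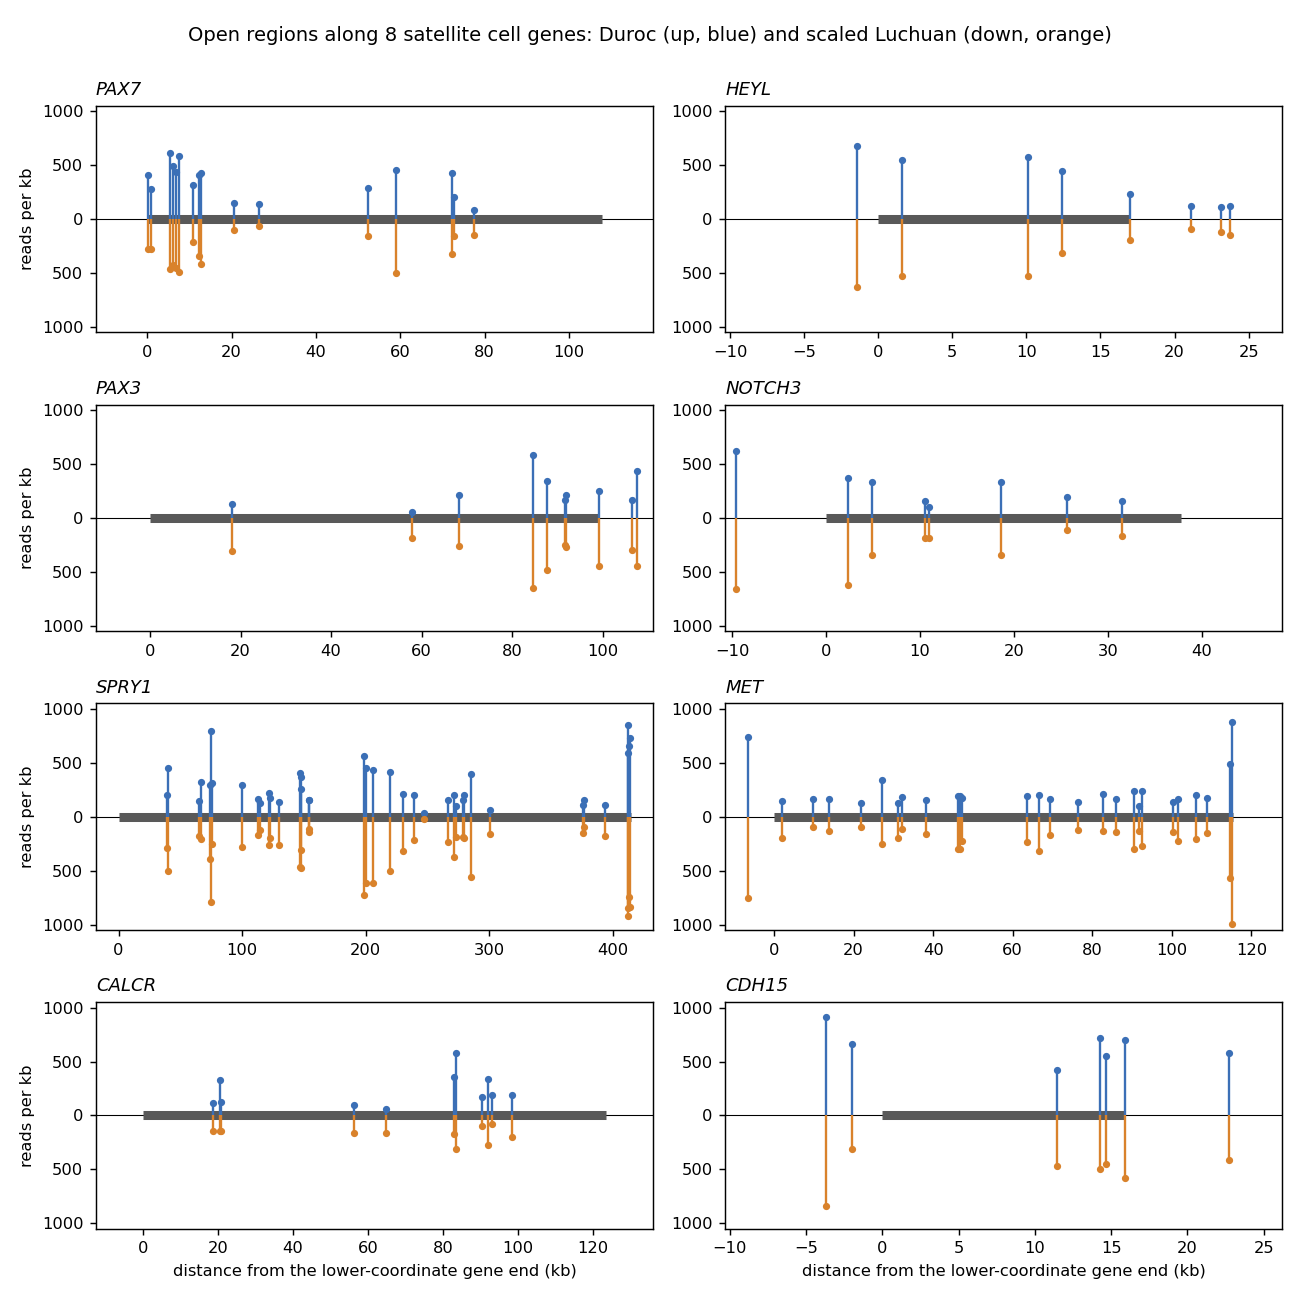
Reads per kb of each open region (y axis) against its distance in kb from the gene end with the lower coordinate (x axis) for the 8 genes with a region, with Duroc upwards in blue, scaled Luchuan downwards in orange, and the gene body as a grey bar. Averaged over both breeds, the tallest stems stand across the upper end of MET (933 reads per kb) and near that of SPRY1 (882). CDH15 follows outside its lower end (878) and has the tallest Duroc stem (916). CALCR has no region at either end.

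Between breeds, few regions of these genes differed by 2-fold or more. Among the 125 regions with 20 or more reads in both breeds together, 4 were at least 2-fold higher in Luchuan, which is 3.20%, against 6.35% of all 137696 such regions. Another 5 were at least 2-fold higher in Duroc, which is 4.0%, against 5.66% of all regions. Both shares lay under those of the muscle as a whole, so a 2-fold breed difference was no more frequent at these genes than elsewhere. The regions concerned were 2 at PAX3, 1 at SPRY1 and 1 at CALCR for Luchuan, and 3 at CALCR, 1 at PAX7 and 1 at CDH15 for Duroc. Of these 9 regions, 8 had been called as a peak in only 1 breed. Among Duroc-specific regions, 5 of 40 were 2-fold higher in Duroc, beside 15.4% of all such regions, and among Luchuan-specific regions 3 of 18 were 2-fold higher in Luchuan, beside 32.0%. Among the 67 common regions, 1 was 2-fold higher in Luchuan, at PAX3, and 0 in Duroc, beside 1.0% and 1.44% of all common regions. With 50 or more reads, 1 region was past 2-fold towards Luchuan and 4 towards Duroc of 93, beside 2.40% and 5.40%. All 9 also had a counting interval without 0. Both criteria together, 2-fold and interval, were met by 5.81% of all regions towards Luchuan and 5.23% towards Duroc. At 1.5-fold there were 20 towards Luchuan and 14 towards Duroc, beside 14.3% and 15.0%.

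Smaller differences leaned towards Luchuan. The log2 ratio was above 0 for 75 of the 125 regions, or 60.0%, against 47.7% of all regions, and its median was 0.11 against -0.02. SPRY1 carried much of this lean, since without its regions the median was 0.0297. Scaling by the total clean reads of each breed instead, which shifts every log2 ratio by -0.20, reversed the median to -0.0725. The counting interval left out 0 for 21 regions higher in Luchuan (16.8%, against 13.1% of all regions) and for 18 higher in Duroc (14.4%, against 15.9%).

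**Figure D2:**
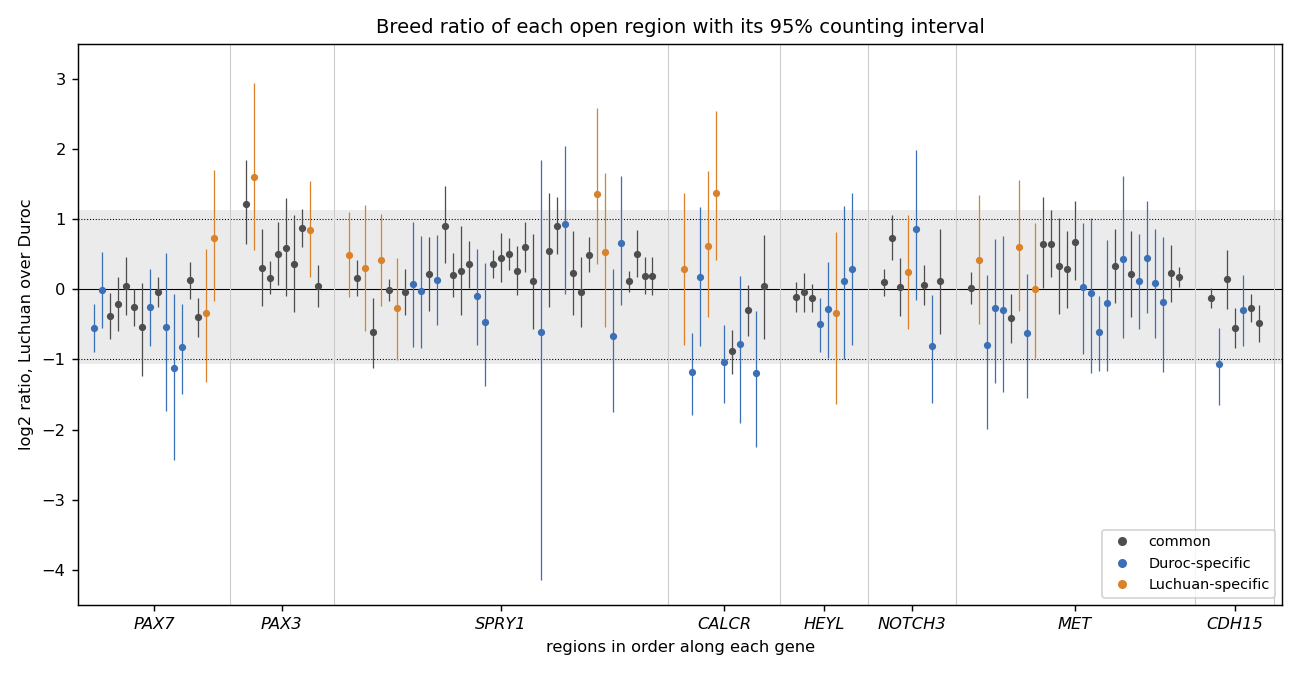
Log2 ratio of Luchuan over Duroc (y axis) of the 126 regions in order along each gene (x axis), with 95% counting intervals, colored by the breed in which the peak was called; the grey band spans the 5th to 95th percentile of all regions and dotted lines mark 2-fold. All 10 PAX3 points lie above 0, 13 of 16 PAX7 points lie below it, and CALCR points lie on both sides from -1.19 to 1.38.

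Reads summed over the regions of a gene divided the 8 genes evenly, with 4 higher in Luchuan and 4 higher in Duroc. PAX3, SPRY1, NOTCH3 and MET were on the Luchuan side, of which NOTCH3 and MET moved to the other side with the clean reads as scale and all 4 did without scaling, and CALCR, CDH15, PAX7 and HEYL were on the Duroc side. The counting interval left out 0 for all 8, but it did so for many genes of the muscle: 22.3% of 16888 genes were higher in Luchuan and 25.6% higher in Duroc by that criterion, and among the 11724 genes with 1000 or more reads, as all 8 had, 21.6% and 29.8%. PAX3 and CALCR lay far out in the distribution over all genes, at percentiles 93.4 and 3.29 of the log2 ratio. The other 6 lay between percentiles 12.1 and 84.9.

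**Figure D3:**
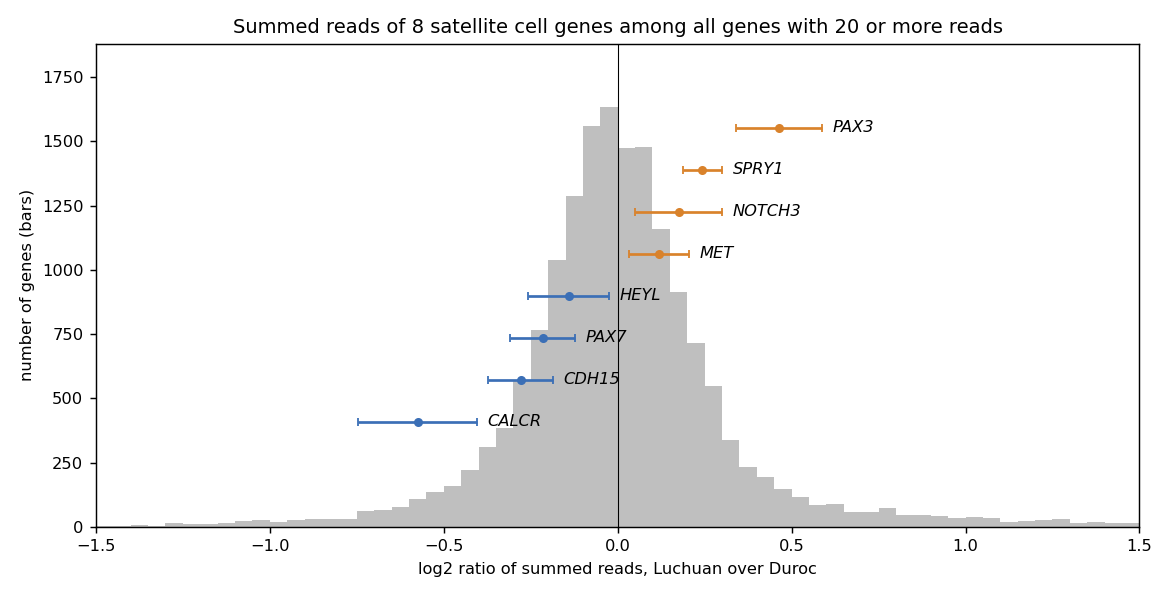
Log2 ratio of summed reads, Luchuan over Duroc (x axis), of the 8 genes as points with 95% counting intervals, orange above 0 and blue below, over a histogram of 16888 genes (bars, y axis: number of genes; the height of a point has no meaning). PAX3 at 0.46 and CALCR at -0.57 stand on the flanks of the histogram and the other 6 genes lie nearer its middle, between -0.28 and 0.24.

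PAX7 is the paired-box transcription factor that defines satellite cells and is required to maintain them. It lies on chromosome 6 from 77160827 to 77268626. Its 16 regions, all within the gene body or across its lower end, held 2524 Duroc reads (95% Poisson interval, 2426 to 2624) and 1474 Luchuan reads (1399.7 to 1551). The log2 ratio of these sums was -0.21 (95% Clopper-Pearson interval, -0.31 to -0.12), a modestly lower signal in Luchuan.

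The openness of PAX7 was gathered at one side. The 9 regions within 14 kb of its lower end held 69.1% of its reads and spanned 13.5 kb, while the nearest region to its upper end was 30.1 kb away. The region across the lower end, chr6:77160665-77161224, had 227 Duroc and 105 Luchuan reads with a log2 ratio of -0.55 (-0.90 to -0.21). A second region beside it, chr6:77161555-77161818, had 74 Duroc and 50 Luchuan reads, and its log2 ratio of 0.00 (-0.55 to 0.53) showed no difference detectable at this depth. The most open region of the gene was chr6:77166117-77166501, 5.48 kb inside the gene, with 538 reads per kb, more than 85.2% of all regions, and it had 234 Duroc and 122 Luchuan reads with a log2 ratio of -0.38 (-0.71 to -0.06).

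The breed ratio of PAX7 was nearly the same on both sides of that 14 kb limit, at -0.22 for the 9 regions near the lower end and -0.21 for the other 7. Among single regions the ratio ranged from -1.12 (-2.44 to -0.06) at chr6:77187142-77187358, with 30 Duroc and 9 Luchuan reads, to 0.73 (-0.17 to 1.70) at chr6:77238288-77238518, with 20 and 23. Both of these extreme regions were among the weakest of the gene, at 99.7 and 117 reads per kb. The first was the only PAX7 region past 2-fold.

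PAX3 is the paralog of PAX7 that acts in embryonic muscle progenitors and persists in satellite cells of some adult muscles. It lies on chromosome 15 from 124093803 to 124193041. Its 10 regions held 1099 Duroc reads (1035 to 1166) and 1027 Luchuan reads (965 to 1092), so Luchuan had nearly as many reads as Duroc before scaling. The log2 ratio was 0.46 (0.34 to 0.59), the highest of the 8 genes, and every region had a log2 ratio above 0.

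The region across the upper end of PAX3, chr15:124192498-124193373, had 214 Duroc and 266 Luchuan reads. Its log2 ratio was 0.87 (0.61 to 1.14), and it had more Luchuan than Duroc reads even without scaling. Past 2-fold were chr15:124111841-124112152, with 40 Duroc and 64 Luchuan reads with a log2 ratio of 1.22 (0.65 to 1.85), and chr15:124151707-124151878, with 10 and 22 reads and 1.61 (0.56 to 2.94). The first was a peak in both breeds and the second was called in Luchuan alone.

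The most open PAX3 region differed little. It was chr15:124178203-124178795, 14.5 kb inside the upper end, with 617 reads per kb, more than 89.5% of all regions, 345 Duroc reads and 262 Luchuan reads, and a log2 ratio of 0.16 (-0.07 to 0.40). The smallest log2 ratio, 0.05 (-0.25 to 0.35), was that of chr15:124201064-124201593, 8.29 kb beyond the upper end. No PAX3 region lay within 18.04 kb of the lower end.

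Notch receptors are cleaved when a ligand on a neighboring cell binds them, and the released part joins RBPJ to switch on genes of the HES and HEY families, among them HEYL. NOTCH3 is also a defining receptor of the mural cells around small vessels, and HEYL is expressed there too, so these genes are not particular to satellite cells. NOTCH3 lies on chromosome 2 from 62364507 to 62402348, and its 8 regions held 1188 Duroc (1121 to 1258) and 909 Luchuan reads (851 to 970.1). The log2 ratio was 0.17 (0.05 to 0.30), and it became -0.0201 with the clean reads as scale.

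The most open NOTCH3 region was chr2:62354497-62355339, 9.59 kb outside its lower end and thus barely inside the 10 kb window, with 519 Duroc and 377 Luchuan reads with a log2 ratio of 0.10 (-0.10 to 0.29). It held 42.5% of the reads of the gene. The largest log2 ratio was 0.86 (-0.15 to 1.98), on 15 Duroc and 19 Luchuan reads at chr2:62375401-62375550. The smallest was -0.81 (-1.63 to -0.08), on 55 Duroc and 21 Luchuan reads at chr2:62390030-62390311. No NOTCH3 region was past 2-fold.

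HEYL, a basic helix-loop-helix repressor, lies on chromosome 6 from 95442655 to 95459597. Its 8 regions held 1572 Duroc (1495 to 1652) and 966 Luchuan reads (906 to 1029), a log2 ratio of -0.14 (-0.26 to -0.02). For the size of its window HEYL was rich in regions, with 2.17 per 10 kb, which is at percentile 89.97 of all genes. Of these regions, 3 lay inside the gene, 1 outside its lower end and 4 outside its upper end. The most open of them, chr6:95440891-95441572, lay 1.42 kb outside the lower end with 655 reads per kb, and its 464 Duroc and 291 Luchuan reads gave a log2 ratio of -0.11 (-0.33 to 0.10). The region across the upper end, chr6:95459533-95459762, was weak, with 54 Duroc and 30 Luchuan reads with a log2 ratio of -0.28 (-0.98 to 0.38).

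HEYL ratios stayed within a narrow range. The smallest was -0.50 (-0.89 to -0.13) at chr6:95454870-95455278, with 182 Duroc and 87 Luchuan reads, and the largest 0.28 (-0.79 to 1.37) at chr6:95466314-95466463, with 18 and 15 reads. Just beyond the window, 10.2 kb from the upper end, a region with 26 Duroc and 24 Luchuan reads had a log2 ratio of 0.43 (-0.42 to 1.304).

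MET is the receptor tyrosine kinase for hepatocyte growth factor, the signal that brings quiescent satellite cells into an alert state. It lies on chromosome 18 from 29426044 to 29541526. Its 27 regions held 2571 Duroc (2473 to 2672) and 1891 Luchuan reads (1807 to 1978), a log2 ratio of 0.12 (0.03 to 0.20) that became -0.0771 with the clean reads as scale. The region across its upper end, chr18:29540702-29541800, was the most open of all 126 regions, with 933 reads per kb, more than 98.7% of the regions of the muscle. It had 961 Duroc and 738 Luchuan reads with a log2 ratio of 0.18 (0.04 to 0.32).

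The second most open region of MET, chr18:29419132-29419647, lay 6.66 kb outside the other end, with 381 Duroc and 262 Luchuan reads, 744 reads per kb (percentile 94.6) and a log2 ratio of 0.02 (-0.21 to 0.25). The region next to the strongest one, chr18:29540413-29540653, had 117 Duroc and 93 Luchuan reads with a log2 ratio of 0.23 (-0.18 to 0.64), and this pair held 43.0% of the reads of the gene. For the other 25 regions together the log2 ratio was 0.07 (-0.05 to 0.18), which includes 0. Along MET the ratio ran from -0.80 (-1.99 to 0.21) at chr18:29435706-29435879, with 29 Duroc and 11 Luchuan reads, to 0.68 (0.13 to 1.26) at chr18:29492410-29492677, with 53 and 58. None was past 2-fold.

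CALCR encodes the calcitonin receptor, a G protein-coupled receptor of quiescent satellite cells. It lies on chromosome 9 from 73279874 to 73403516. Its 11 regions held the fewest reads of the 8 genes, 901 in Duroc (843 to 962) and 410 in Luchuan (371 to 452), and had the lowest median openness, 136 reads per kb. The log2 ratio of the sums was -0.57 (-0.75 to -0.40), a signal in Luchuan 0.672 times that in Duroc.

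The regions of CALCR all lay inside the gene, none nearer than 18.6 kb to its lower end or 25.1 kb to its upper end. A neighboring pair carried 43.0% of its reads. These were chr9:73362831-73363156, with 116 Duroc and 38 Luchuan reads with a log2 ratio of -1.04 (-1.62 to -0.51), and chr9:73363174-73363709, with 309 and 113 reads and -0.89 (-1.21 to -0.57). The pair together had a log2 ratio of -0.93 (-1.21 to -0.66). The second of them was the most open region of the gene, with 444 reads per kb, and was a peak in both breeds, while the first was called in Duroc alone.

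Elsewhere in CALCR the regions went both ways. At chr9:73300323-73300655 there were 111 Duroc and 33 Luchuan reads, with a log2 ratio of -1.17 (-1.80 to -0.62). At chr9:73372791-73373029 there were 45 Duroc and 13 Luchuan reads, with -1.19 (-2.24 to -0.31). By contrast chr9:73344645-73344857 had 13 Duroc and 24 Luchuan reads with a log2 ratio of 1.38 (0.41 to 2.54). In all, 6 regions were below 0 and 5 above it, and the 5 above it were weak, at 197 reads per kb or less.

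SPRY1 encodes a Sprouty protein, an intracellular inhibitor of receptor tyrosine kinase signaling that returns satellite cells to quiescence. The annotation used here gives it a body of 414 kb on chromosome 8 from 100449476 to 100863780, much longer than the 14.3 to 124 kb of the other members, so many of its 39 regions lie far from either end. They held 5675 Duroc (5528 to 5825) and 4553 Luchuan reads (4422 to 4687), a log2 ratio of 0.24 (0.19 to 0.30). Of the 39 regions, 29 were above 0. These 39 make up a large part of the 126 regions of these genes. Whether those far from either end belong to SPRY1 was not tested.

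The 4 regions within 3 kb of the upper end of SPRY1 spanned 2.89 kb and were all strong, from 699.5 to 882 reads per kb. The most open, chr8:100860783-100861746, had 817 Duroc and 599 Luchuan reads with a log2 ratio of 0.11 (-0.04 to 0.27). The 2 nearest the end had log2 ratios of 0.19 each, on 276 Duroc and 214 Luchuan reads at chr8:100862448-100862870 (-0.07 to 0.46) and on 253 and 196 at chr8:100863325-100863670 (-0.08 to 0.47). These 4 regions together had a log2 ratio of 0.19 (0.07 to 0.30) and the other 35 one of 0.26 (0.20 to 0.33). The extremes lay among weak regions, at 1.36 (0.36 to 2.58) on 12 Duroc and 22 Luchuan reads at chr8:100749875-100750077 and at -0.66 (-1.75 to 0.28) on 31 and 13 reads at chr8:100826192-100826391. The only region of these genes under 20 reads was also in SPRY1, with 5 Duroc and 2 Luchuan reads.

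CDH15 encodes M-cadherin, which holds satellite cells to the muscle fiber. It lies on chromosome 6 from 636350 to 652260. Among the genes analysed, it had the most reads per kb of window. Of its regions, 4 lay inside the gene, 2 outside its lower end and 1 outside its upper end. Its 7 regions, each with 443 reads per kb or more, put the reads of its window at percentile 93.2 of all genes. They held 2586 Duroc (2487 to 2688) and 1445 Luchuan reads (1371 to 1521), a log2 ratio of -0.28 (-0.37 to -0.18), and 6 of the 7 regions were below 0.

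The most open CDH15 region was chr6:632108-633212, 3.69 kb outside the lower end, with 878 reads per kb, 1012 Duroc reads, 629 Luchuan reads with a log2 ratio of -0.12 (-0.27 to 0.02). Between it and the gene lay chr6:634257-634436, called in Duroc alone, with 119 Duroc and 38 Luchuan reads with a log2 ratio of -1.07 (-1.65 to -0.55), the only one past 2-fold. The region across the upper end, chr6:651843-652620, had 543 Duroc and 306 Luchuan reads with a log2 ratio of -0.27 (-0.47 to -0.06). The largest log2 ratio was 0.14 (-0.28 to 0.56), on 115 Duroc and 86 Luchuan reads at chr6:647688-647960.

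VCAM1, an adhesion molecule of quiescent satellite cells and of activated endothelium, lies on chromosome 4 from 117496914 to 117511211. No interval of the table fell in its 34.3 kb window, and the nearest region lay 22.1 kb beyond the gene, with 40 Duroc and 24 Luchuan reads. Such an absence was not rare, since 13.1% of all genes had no region in their window. The table lists called peaks only, so a weak signal at VCAM1 would not appear in it.

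Regions around a gene can share its breed ratio, so each sum was set beside the median log2 ratio of the regions within 1 Mb outside the window. SPRY1 and MET had the ratio of their surroundings, 0.24 beside 0.26 over 92 regions and 0.12 beside 0.11 over 143. CDH15 and PAX7 were below surroundings that were themselves below 0. HEYL was below surroundings that lay at the median of all regions, -0.02. CDH15 had -0.28 beside -0.18 over 187 regions, PAX7 -0.21 beside -0.11 over 116 and HEYL -0.14 beside -0.02 over 173. CALCR differed in sign from its surroundings, and PAX3 and NOTCH3 were above surroundings that lay near the median of all regions. PAX3 had 0.46 where its 86 surrounding regions had a median of -0.03, and CALCR had -0.57 where its 115 had 0.18. NOTCH3 had 0.17 where its 77 had -0.03. A sum weighs regions by their reads and a median does not. The medians over their own regions were 0.55 for PAX3, -0.29 for CALCR and 0.11 for NOTCH3.

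**Figure D4:**
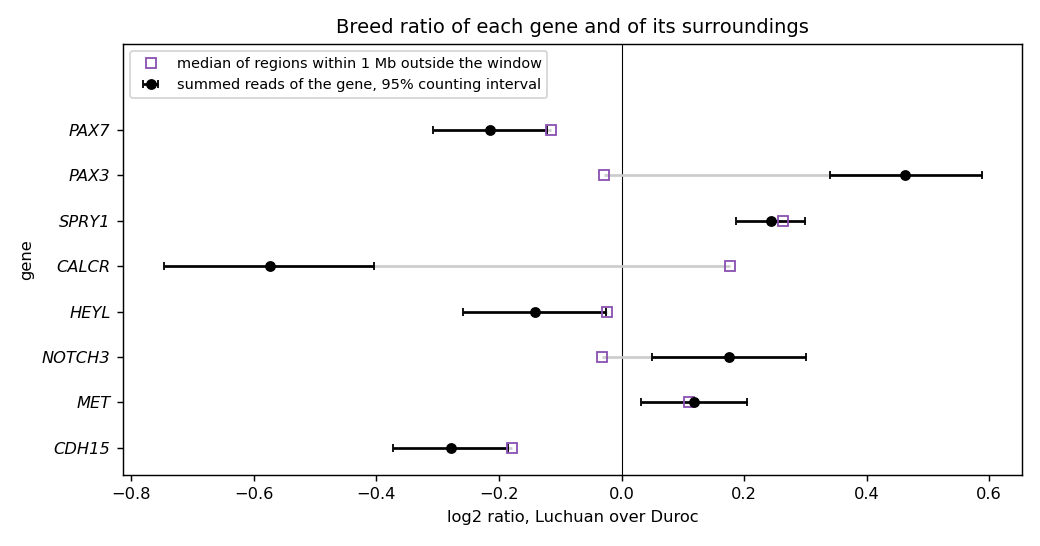
Log2 ratio of Luchuan over Duroc (x axis) of the summed reads of each gene (y axis; black points with 95% counting intervals) and the median of the regions within 1 Mb outside its window (open purple squares). The point and square nearly coincide for SPRY1 and MET and lie farthest apart for CALCR (-0.57 and 0.18) and PAX3 (0.46 and -0.03).

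The Notch pathway was counted over a longer list. Of its 35 genes, 32 lie on the chromosomes of the table, with NOTCH3 and HEYL among them, and NOTCH1, JAG2 and NRARP do not. Of their 322 regions with 20 or more reads, 13 were at least 2-fold higher in Luchuan (4.04%) and 15 in Duroc (4.66%), beside 6.35% and 5.66% of all regions, with a median log2 ratio of -0.03. By summed reads, 7 genes were higher in Luchuan and 8 in Duroc past counting error and 17 were neither, where 22.3% and 25.6% of all genes were higher in the one and the other breed. The lowest were LFNG, a glycosyltransferase that modifies Notch receptors, at -0.53 (-0.63 to -0.42), and the ligand DLL1 at -0.32 (-0.49 to -0.15). The highest were PSEN2, a catalytic subunit of the protease that cleaves Notch receptors, at 0.47 (0.38 to 0.57), and RFNG, another glycosyltransferase, at 0.32 (0.15 to 0.49).

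The 32 other satellite cell genes, such as MYF5, CD34 and SDC4, all had regions. Of 398 tested, 14 were at least 2-fold higher in Luchuan (3.52%) and 19 in Duroc (4.77%), beside 6.35% and 5.66% of all regions, with a median log2 ratio of 0.01. The counting interval of the summed reads lay above 0 for 6 genes and below 0 for 10, and it included 0 for the other 16, where it lay above 0 for 22.3% of all genes and below 0 for 25.6%. SOX8 at -0.50 (-0.64 to -0.36) and CDKN1C, a cell cycle inhibitor, at -0.40 (-0.60 to -0.20) were lowest. TEK, the angiopoietin receptor, at 0.78 (0.33 to 1.25) and CAV1 at 0.58 (0.40 to 0.77) were highest, but TEK had only 76 Duroc and 89 Luchuan reads.

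Ligands, co-receptors and partners of the 10 genes numbered 34, of which 32 could be analysed. Of their 325 regions, 8 were at least 2-fold higher in Luchuan (2.46%) and 2 in Duroc (0.615%), beside the same 6.35% and 5.66%, with a median log2 ratio of 0.01. The counting interval of the summed reads lay above 0 for 9 genes, below 0 for 7 and on both sides of 0 for 16, beside 22.3% above and 25.6% below over all genes. HGF, the ligand of MET, had the highest ratio, 0.80 (0.33 to 1.28), but on only 71 Duroc and 84 Luchuan reads. ITGA4, a subunit of the integrin that binds VCAM1, followed at 0.49 (0.30 to 0.69). The lowest were DLL1, given above, and MEOX2 at -0.27 (-0.44 to -0.09).

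Markers of the other cells in muscle were counted in the same way. The 19 muscle fiber genes had a region at a gene end in every case, and their reads per window had a median at percentile 99.7 of all genes, beside 57.0 for the satellite cell genes. Their regions were lower in Luchuan more often than all regions were, with 23.6% above 0 beside 47.7% of all. Their median log2 ratio was -0.26. Among the 624 regions, 0 were at least 2-fold higher in Luchuan and 30 in Duroc (4.81%), beside 6.35% and 5.66% of all regions. By summed reads, 17 of the 19 genes were higher in Duroc past counting error and 2 in Luchuan. Of all genes with 1000 or more reads, 29.8% were higher in Duroc and 21.6% in Luchuan. MYH4 at -0.62 and TPM1 at -0.52 were lowest, and TTN at 0.03 and ACTN2 at 0.09 were highest. The 11 endothelial genes had 53 regions, of which 51 with 20 or more reads had a median log2 ratio of 0.25, with reads per window at a median percentile of 22.0 and a region at a gene end in 2 genes. For 12 mural cell genes, NOTCH3 and HEYL included, the median log2 ratio was 0.02, and RGS5 had no region. It was 0.20 for 10 fibro-adipogenic progenitor genes, of which 7 had a region, -0.06 for 12 leukocyte genes, of which 11 had one, and -0.05 for 10 genes of other organs, of which 9 had one. The part of these cells in the ratios of the satellite cell genes was not tested.

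Within these lists the genes with the lowest and highest ratios were TIE1 at -0.71 and EMCN at -0.51, and KDR at 0.73, beside TEK given above, for endothelium. For mural cells they were TAGLN at -0.52, MCAM at -0.33, PDGFRB at 0.27 and ACTA2 at 0.64. For fibro-adipogenic progenitors they were PI16 at -0.78, PDGFRA at -0.11, DCN at 0.38 and COL3A1 at 0.60, and the intervals of PI16, PDGFRA and DCN included 0. Leukocyte genes ran from PTPRC at -1.07 and C1QA at -0.60 to CD3D at 0.33 and CD3E at 1.19. Genes of other organs ran from GFAP at -0.31 and SYN1 at -0.27 to ALB at 1.19 and CDX2 at 1.25. KDR, with 62 Duroc and 70 Luchuan reads, and PTPRC, with 88 and 28, had few reads. The interval of CD3D included 0. The highest ratios of the last 2 lists also rest on few reads. CD3E had 13 Duroc and 21 Luchuan reads, ALB 22 and 35 and CDX2 10 and 17. The lowest of the other organs do not rest on few reads, since GFAP had 1448 and 792 reads and SYN1 1245 and 702.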

How the data were processed

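Per the labels, Trimmomatic (version 0.36) served for read filtering, Bowtie2 for alignment to the Sscrofa11.1 genome and MACS2 for peak detection. Removal of duplicates, read shift and pooling are not given in the sources used here. The reference genome comes from a Duroc pig. The authors deposited raw read counts, 1 per peak interval and breed, which name no replicate and were read as pooled over 3 boars. Their rescaled fold changes, average signals and P values are comparisons and were not used. RNA-seq was not analysed here.

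Common intervals that overlapped or touched were joined and stood for by the longest of them, so that 217213 intervals gave 140081 regions. Starts were read as counted from 0, since the shortest interval is then 150 bases, and are given counted from 1. Gene positions came from the RefSeq annotation of Sscrofa11.1, which matched all 10 genes by symbol. A region was called at a log2 ratio of 1 or more in size with 20 or more reads. Intervals at 95% are exact Poisson for counts and, for log2 ratios, Clopper-Pearson on the share of Luchuan reads. Without molecular identifiers, reads may repeat a molecule, so intervals cover counting error only.

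Named regions were, per gene, the most open, those within 1 kb of a gene end (the start had been planned, but the strand is missing), those called, and the largest and smallest ratios with 20 or more reads. For each other list the 2 lowest and 2 highest genes by summed reads were named. The members and lists were chosen with earlier results of these data known. The limits of 14 kb and 3 kb at PAX7 and SPRY1, the pairs at MET and CALCR, the surroundings of 1 Mb and the limit of 1000 reads per gene were chosen after values had been seen. Calls and intervals were run on simulated counts that held counting error only, with large changes placed at regions with many reads. That run checks the code, and it does not cover spread between boars or calls on few reads. The alternatives covered scaling, pseudocount, minimum of reads, region set, window and fold. Scripts ran in Python 3.11.15 with SciPy 1.17.1 for intervals, pandas 2.3.3 and NumPy 2.4.6 for tables and Matplotlib 3.10.9 for plots.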

Additional observations from a re-analysis of the deposited data

How the results depend on the processing

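The counts of 4 regions at least 2-fold higher in Luchuan and 5 in Duroc moved most with the threshold and the scale. They were 20 and 14 at 1.5-fold, 1 and 4 with a minimum of 50 reads, 1 and 0 with common regions only, 8 and 7 with a window of 50 kb, and 1 and 21 without scaling. With the interval also required to leave out 0 they stayed at 4 and 5. The median log2 ratio over the regions, 0.11, was 0.16 for common regions only, 0.0297 without SPRY1, -0.0725 with the clean reads as scale and -0.43 without scaling. These last 2 settings shift every ratio, by -0.20 and -0.56, and also reversed some genes. NOTCH3 became -0.0201 and MET -0.0771 with clean reads, and without scaling MET became -0.44, NOTCH3 -0.39, SPRY1 -0.32 and PAX3 -0.10. SPRY1 minus its surroundings was -0.0196. PAX7, CALCR, HEYL and CDH15 stayed below 0 under every setting tried for them, but with a window of 50 kb HEYL moved from -0.14 to -0.0147, nearly no difference, and NOTCH3 fell from 0.17 to 0.0664. Of 210 recomputed ratios of the 35 named regions, 188 stayed within the counting interval, 22 left it, all of them with clean reads or no scaling, and no called region changed direction. The settings with common regions only, without SPRY1 and with the surroundings were chosen after seeing the data. Leaving out a boar was not possible. No paired analysis was possible, since the labels give no pairing of boars between breeds and the deposited counts carry no replicate number. The intervals hold no spread between boars.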
